A study of Arabidopsis thaliana with 6 samples.

Results

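Among closed buds, open flowers and young siliques of Arabidopsis thaliana, 184 of the 22746 probe sets that measure transcripts had a high signal in the buds and a low one in the later stages. They were chosen by a rule on the signals themselves: with signals under 25 set to 25, the lower of the 2 bud arrays had to be at least 4 times the highest of the 4 flower and silique arrays. The rule was met by 191 probe sets (0.84%), and the rule also drops 8 named genes, 7 of which had passed (ATA27, SHT, LEA, sks18, AtVEX1, SWEET8 and AT5G07230). SWEET3, the eighth gene on the drop list, reached a ratio of 3.61 and had not passed. Every difference between buds and the other stages below is therefore a description of how the members were chosen, and none was tested.

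The samples came from 6-week-old plants of the accession Landsberg erecta, and each was pooled from 12 plants. The 3 groups, of 2 Affymetrix ATH1 arrays each, were buds that were still closed, taken whole a short time ahead of pollination, whole flowers that had opened and been pollinated, and young siliques, 2 d past pollination, from which the withering flower organs had been left out. No group carried an introduced allele or a treatment. The experiment was done a second time to give replicate 2, and buds 1, for example, is the bud array of replicate 1.

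Pollen forms inside the anthers of the closed bud. The innermost layer of the anther wall, the tapetum, feeds the developing pollen grains, secretes the precursors of their wall, and then breaks down and leaves lipids and proteins on the grain as the pollen coat. The pollen itself dries before it is shed, and late embryogenesis abundant (LEA) proteins and oil body proteins are known from drying seeds and pollen.

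Gene identities came from the supplied gene tables. Of the 184 members, 97 were paired with a single gene, 2 with several genes and 85 with none listed. Only 7 of the 97 genes had a symbol; the others are called by their locus. Where a family is given for a locus, it is background knowledge of that locus, assigned after the values were seen to 41 members, and supports no test.

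The members spanned a wide range of brightness in buds. Their signals ran from 101 to 3480 (median 294) on buds 1 and from 103 to 3784 (median 386) on buds 2, on the linear MAS5 scale on which the 2% trimmed mean of every array is about 100. Median signals were 19.0 and 18.8 on the flower arrays and 15.2 and 9.48 on the silique arrays. The ratio of the lower bud array to the highest other array had a median of 7.45 and a maximum of 75.0. It was at least 10 for 60 members and under 5 for 37. In bulk samples such as these, fewer cells of a type and less RNA per cell cannot be told apart.

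**Figure D1:**
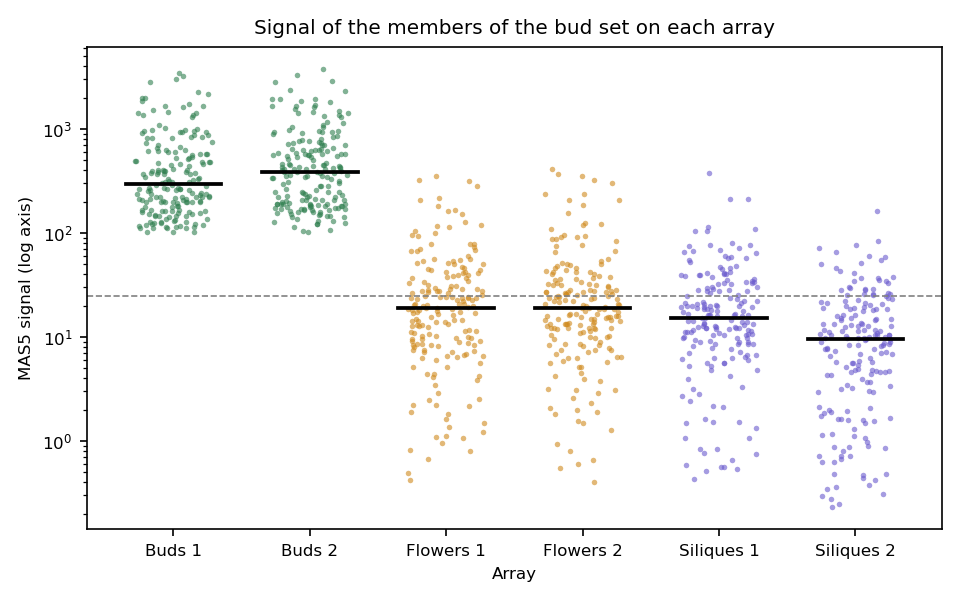
MAS5 signal (log axis) of each of the 184 members on each of the 6 arrays, with 1 point per member, a black bar at the median and a dashed line at 25, the level below which the rule ignores differences. Median signals are 294 and 386 on the bud arrays and lie between 9.48 and 19.0 on the flower and silique arrays, where some members stay above the dashed line.

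At the level of 25, signal was confined to closed buds in 95 of the 184 members (51.6%), whose signal was under 25 on all 4 flower and silique arrays. The other 89 had a signal of 25 or more on at least 1 of those arrays, and the highest such signal was 415. Nothing here measures other organs of the plant. The same rule turned to the other stages was met by 37 probe sets for flowers (0.163%) and by 29 for siliques (0.127%).

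The lowest ratios inside the rule were 4.00, 4.03 and 4.05, in 3 probe sets with no listed gene (266462_at, 261015_at and 253850_at). The first of these had signals of 221 and 168 in buds, 41.9 and 16.1 in flowers, and 28.5 and 20.4 in siliques. Just outside were the probe set of AT1G16310, at 105 and 110.3 in buds, 23.7 and 26.6 in flowers, and 17.3 and 17.5 in siliques (ratio 3.94), that of AT1G54870 with a ratio of 3.94, and 262147_at with 3.90.

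Among genes paired with their own probe set, AT1G68875 had the highest ratio. It had signals of 1875 and 1931 in buds, 3.86 and 17.6 in flowers, and 0.539 and 2.95 in siliques, so that both bud arrays were at least 75.0 times the level of 25. AT4G37900 followed, with 942 and 1435 in buds, 6.33 and 20.4 in flowers, and 2.41 and 0.295 in siliques. AT5G17340 and AT5G48210 had ratios of 21.0 and 19.0, and AT1G28375 had 24.3, with bud signals of 607 and 624. AT1G30020, AT5G44400 and AT5G61605 were also among the 20 genes with the highest ratios, at 22.6, 18.1 and 14.9. The tables supplied give these genes no function. In all 8 the bud arrays stood far above the other 4, none of which exceeded 31.3.

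**Figure D2:**
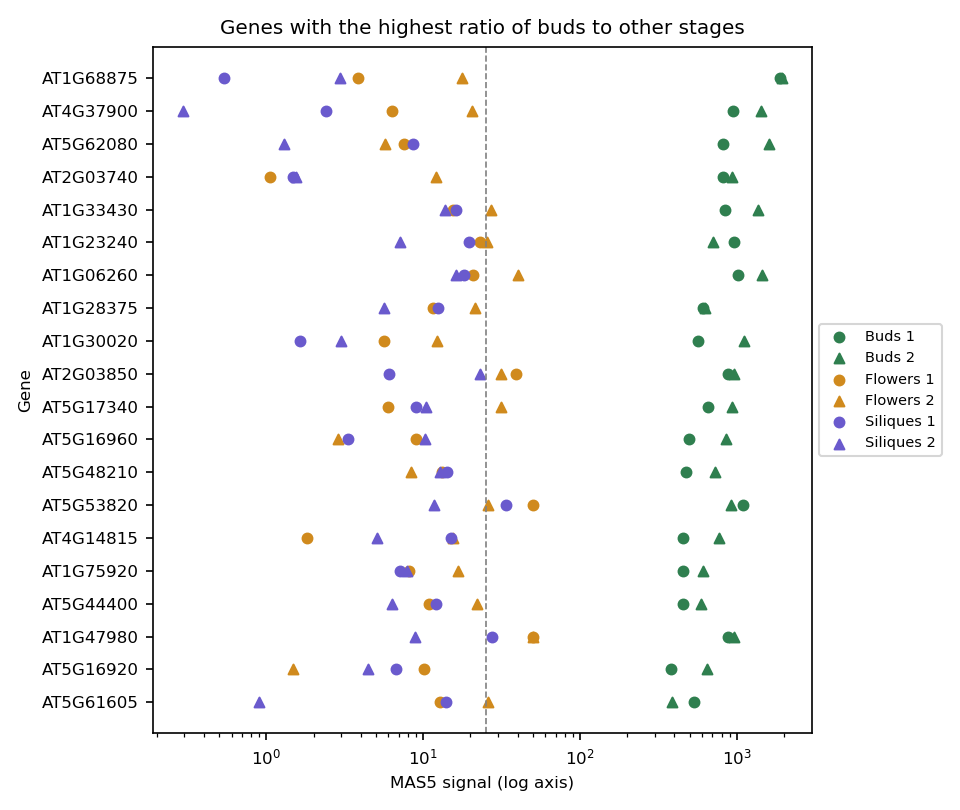
MAS5 signals (log axis) on each of the 6 arrays for the 20 members paired with a single gene that have the highest ratio of the lower bud array to the highest other array, in falling order from the top. Circles are replicate 1 and triangles replicate 2, and the dashed line marks 25. The bud arrays lie between 379.9 and 1931 and the others at or below 50.4.

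Lipid transfer proteins, small secreted proteins that bind lipids and of which the tapetum makes several, gave 6 members. AT5G62080, entered as LTPC in the list of anther lipid transfer proteins, had signals of 817 and 1616 in buds, 7.52 and 5.73 in flowers, and 8.59 and 1.29 in siliques. Both bud arrays were at least 32.7 times the level of 25, and its bud arrays differed 1.98-fold. AT4G14815 had signals of 457 and 771 in buds, 1.83 and 15.4 in flowers, and 15.2 and 5.09 in siliques. AT3G52130 was at 195 and 662 in buds and AT3G07450 at 213 and 558, with no flower or silique signal above 16.1 in either gene. AT1G66850 was the brightest of the family in buds and the member of it that remained visible later, at 3208 and 3302 in buds, 128 and 356 in flowers, and 55.0 and 10.00 in siliques. The remaining one, AT1G36150, was at 127 and 148 in buds. In 6 of 6 genes buds 2 was higher than buds 1, by 1.03 to 3.39 times.

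GDSL esterases/lipases, a large family of secreted lipid hydrolases that includes proteins of the pollen coat, gave 8 members. AT1G75920, entered as EXL5 in the pollen coat list, had signals of 457 and 609 in buds, 8.07 and 16.8 in flowers, and 7.13 and 7.84 in siliques, and AT1G75880, entered as EXL1, had 491 and 419.6 in buds, 92.9 and 45.8 in flowers, and 24.7 and 18.7 in siliques. The flower arrays of EXL1 were above 25, and those of EXL5 were not. AT1G20120 had 611 and 765 in buds, 66.8 and 76.4 in flowers, and 18.4 and 11.4 in siliques. AT2G04570 had the highest bud signals of the family and also the highest silique signals, at 1312 and 1416 in buds, 118 and 123 in flowers, and 210.0 and 162 in siliques. The other 4, AT1G06990, AT2G42990, AT5G42170 and AT2G04020, had ratios of 6.38, 9.24, 4.93 and 8.92. Of the 8 members, 2 were higher on buds 1 and 6 on buds 2. The neighbour of these genes entered as EXL3, AT1G75900, had the reverse order of stages, at 182 and 255 in buds, 359 and 469.6 in flowers, and 1640.0 and 1508 in siliques, and is no member.

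LEA and desiccation-related proteins, which accumulate in drying tissues, gave 8 members with bud means from 343 to 1417. AT2G03740 had signals of 812 and 927 in buds, 1.06 and 12.1 in flowers, and 1.48 and 1.55 in siliques, and AT2G03850 had 884 and 959 in buds, 39.3 and 31.4 in flowers, and 6.05 and 23.0 in siliques. AT5G53820 had 1088 and 924 in buds, 50.1 and 25.8 in flowers, and 33.7 and 11.7 in siliques. The bud arrays of these 3 genes lay between 812 and 1088, and in AT2G03740 all other arrays were under 25. AT3G02480 had 927 and 632 in buds, 60.0 and 32.3 in flowers, and 41.8 and 24.6 in siliques, AT5G38760 had 1659 and 1174 in buds, 218 and 208 in flowers, and 66.1 and 77.0 in siliques, and AT1G52680 had 950.4 and 694 in buds, 99.4 and 75.5 in flowers, and 39.3 and 29.9 in siliques. All 3 were higher on buds 1 than on buds 2, by 1.47, 1.41 and 1.37 times, and all kept signals above 25 in flowers. AT4G13230 and AT1G47980, a desiccation-like protein gene, had ratios of 12.7 and 17.3. Of the 8 genes, 5 were higher on buds 1 and 3 on buds 2.

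Of the oil body proteins, the caleosin gene AT1G23240 had signals of 958 and 703 in buds, 23.0 and 25.6 in flowers, and 19.7 and 7.16 in siliques, and the oleosin gene AT2G25890 was at 123 and 103 in buds and no higher than 11.6 elsewhere. Both were higher on buds 1, by 1.36 and 1.20 times.

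Proteases gave 4 members. AT1G06260, a papain-type cysteine protease, had signals of 1023 and 1457 in buds, 20.7 and 40.3 in flowers, and 18.1 and 16.2 in siliques. AT3G19390, of the same class, had 527 and 409.6 in buds, 77.6 and 87.0 in flowers, and 12.0 and 4.79 in siliques, and AT4G04460, an aspartic protease, had 2161 and 1961 in buds, 317 and 239.6 in flowers, and 109 and 83.8 in siliques. The flower arrays lay on either side of 25 in AT1G06260, and both were above it in AT3G19390 and AT4G04460. The subtilisin-like protease AT5G03620 was at 215 and 182 in buds.

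Genes of cell wall carbohydrates gave 7 members, all of them higher on buds 2 than on buds 1. The galactosyltransferase AT1G33430 had signals of 843 and 1369 in buds, 15.6 and 27.2 in flowers, and 16.2 and 13.7 in siliques. The pectate lyases AT1G30350 and AT5G55720 were at 334 and 342 and at 202 and 447 in buds, so that the first had level bud arrays and the second differed 2.21-fold. The glucanase-type hydrolase AT3G23770 was at 128 and 250.5 in buds, and no higher than 6.99 elsewhere. DD46 (AT1G22015), of a galactosyltransferase family, was at 144 and 172 in buds, 23.6 and 14.9 in flowers, and 29.3 and 15.9 in siliques. The pectin methylesterase inhibitor AT5G46940 and the UDP-sugar epimerase AT4G20460 had ratios of 5.14 and 4.48.

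Among transporters, CHX19 (AT3G17630), a cation/H+ exchanger, had signals of 214 and 206 in buds, 28.9 and 28.6 in flowers, and 22.3 and 21.3 in siliques, and TMT3 (AT3G51490), a sugar carrier of the vacuole membrane, had 181 and 158 in buds, 17.0 and 16.0 in flowers, and 19.8 and 9.80 in siliques. The amino acid transporter AT1G71680 had a ratio of 6.50, and the MATE carrier AT4G22790, at 103 and 104 in buds, had 4.12. The sugar kinases AT3G59480 and AT4G10260 were at 200.1 and 243 and at 112 and 144 in buds. The other genes with a symbol were TET15 (AT5G57810), a tetraspanin of the membrane, with a ratio of 6.78, PC1 with 7.46, XIE (AT1G54560), a myosin motor, with 5.19, and ATOEP16-2 (AT4G16160), of the plastid envelope, with 4.60. All 7 members with a symbol had bud signals between 115 and 234, below the bud signals of any LEA or desiccation gene among the members.

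The 87 members without a single listed gene were about as bright in buds as the 97 with one (median of bud means 393 and 333) and had a like ratio (medians 7.94 and 7.28). They held 9 of the 20 highest ratios and 12 of the 27 members with a bud mean over 1000. The highest were 252063_at, at 1513 and 2310.5 in buds, 5.11 and 18.4 in flowers, and 5.64 and 0.983 in siliques, and 262674_at, at 1412 and 1661 in buds, 9.80 and 36.9 in flowers, and 14.4 and 19.2 in siliques. The brightest member of all in buds was 258392_at, which the annotation pairs with 2 genes, at 3479.9 and 3784 in buds, 95.7 and 368 in flowers, and 16.3 and 6.78 in siliques.

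Of the 96 members that could be placed in the order of protein-coding genes, in the RefSeq gene table of assembly TAIR10.1, 16 had another member within 10 genes. They formed 6 stretches. The same count was not made for other measured genes, so closeness in gene order is not shown to be particular to the members. On chromosome 3, AT3G28780, AT3G28790, AT3G28830 and AT3G28840 lay within 7 coding genes, and these 4 were the only genes of that stretch with a probe set of their own. AT3G28790 had signals of 1982 and 1549.6 in buds, 321 and 304 in flowers, and 113 and 58.6 in siliques, and AT3G28830 had 1668 and 1672 in buds, 355 and 320.4 in flowers, and 104 and 59.4 in siliques. AT3G28840 had 841 and 734 in buds, 42.0 and 0.550 in flowers, and 57.2 and 3.68 in siliques, and AT3G28780 had 163 and 174 in buds, 23.7 and 6.80 in flowers, and 8.53 and 1.17 in siliques. The bud arrays of all 4 exceeded their other arrays. The member 256580_s_at is paired with AT3G28810 and AT3G28820 of the same stretch, and had bud signals of 532 and 572.

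On chromosome 1, 4 members (AT1G23520, AT1G23570, AT1G23600 and AT1G23670) lay within 15 coding genes, of which 11 were measured. AT1G23570 had signals of 309 and 443 in buds, 16.4 and 13.9 in flowers, and 4.85 and 1.95 in siliques, and AT1G23520 had 262 and 190.3 in buds, 8.39 and 7.49 in flowers, and 8.60 and 3.24 in siliques. Of the other genes of the stretch, AT1G23560 had 39.7 and 139 in buds, 8.10 and 1.20 in flowers, and 3.36 and 0.782 in siliques, and AT1G23590 had 200.5 and 79.8 in buds, 10.6 and 6.08 in flowers, and 4.77 and 9.01 in siliques. In both, the bud arrays were above the other 4 but the lower one missed the rule, and it was buds 1 in AT1G23560 and buds 2 in AT1G23590. AT1G23580 had 67.7 and 50.5 in buds, 1.01 and 10.5 in flowers, and 6.21 and 5.55 in siliques, also highest in buds, and missed the rule on both bud arrays. AT1G23530, AT1G23610, AT1G23640 and AT1G23650 were at no more than 26.9 on any array. The remaining stretches held pairs of members: AT1G06250 and AT1G06260, AT1G75880 and AT1G75920, AT5G09500 and AT5G09570, and AT5G16920 and AT5G16960. In the last pair, AT5G16920 was at 379.9 and 649 and AT5G16960 at 495 and 847 in buds, each 1.71 times higher on buds 2, while the 3 genes between them were between 12.5 and 44.9 on all arrays. Whether probe sets of related neighbours share signal was not tested.

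**Figure D3:**
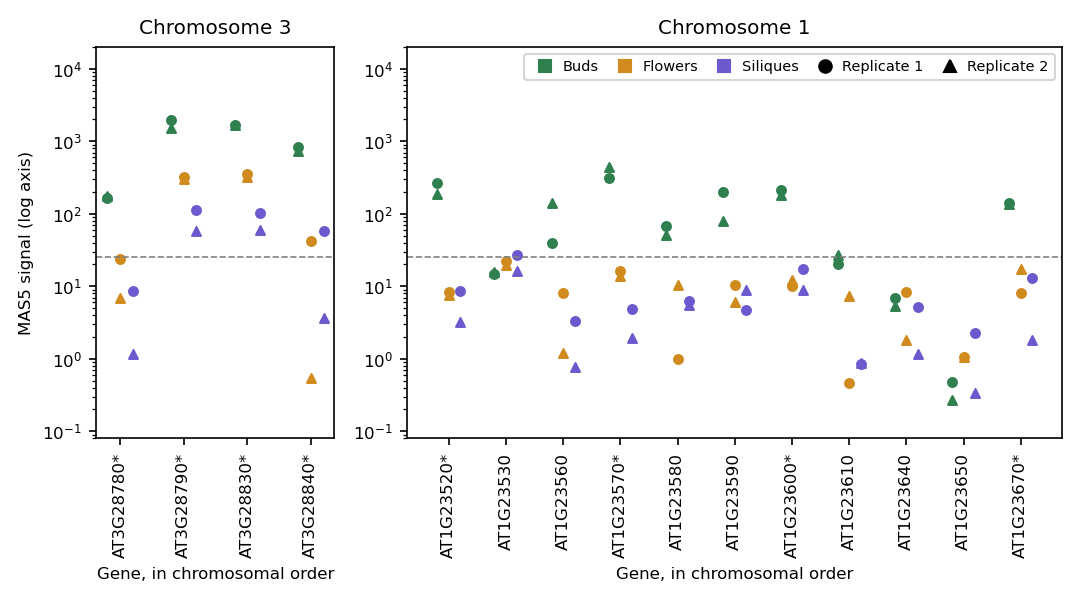
MAS5 signals (log axis) on the 6 arrays for the measured genes of the stretches on chromosome 3 (7 coding genes, 4 measured) and chromosome 1 (15 coding genes, 11 measured), in chromosomal order, with a star at members and a dashed line at 25. AT1G23640 has 2 probe sets, of which 1 is drawn. The 4 measured genes on chromosome 3 are all members, whereas on chromosome 1 members lie among genes at or below 26.9 on every array and genes that missed the rule on the lower bud array.

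The members did not behave alike in the 2 bud samples. Buds 2 was higher than buds 1 in 118 members and lower in 66. It was at least 1.5 times higher in 44 members (23.9%), and buds 1 was at least 1.5 times higher in 4 (2.17%). Over the 6482 probe sets with a signal of 100 or more on both bud arrays, these shares were 4.89% and 6.08%. The median log2 ratio of buds 1 over buds 2 was −0.12 over the members and −0.03 over those probe sets. The rule looks at the lower bud array and does not set which of the 2 is higher. With 1 array on each side these ratios carry no test.

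The members high on buds 2 included 4 of the 6 lipid transfer genes, 3 of the 7 cell wall carbohydrate genes and 0 of the 8 LEA and desiccation genes. AT3G52130, AT1G02813, AT3G07450, AT5G13380 and AT5G55720 were the 5 genes with a difference of 2 times or more, at 3.39, 2.71, 2.62, 2.30 and 2.21 times. On the other side, AT5G44300, at 372 and 190.2 in buds, 46.1 and 27.6 in flowers, and 32.6 and 12.5 in siliques, and AT1G63060, at 267 and 152 in buds, 26.5 and 31.5 in flowers, and 6.07 and 2.97 in siliques, were 1.96 and 1.76 times higher on buds 1. The lipid transfer genes had a median log2 ratio of −0.87 and the LEA and desiccation genes one of 0.22. These were read from 6 and 8 genes in a single pair of arrays.

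Of the 44 members high on buds 2, 38 were under 25 on all 4 flower and silique arrays, against 57 of the other 140. The median log2 ratio was −0.41 over the 95 members that were under 25 in flowers and siliques and −0.004 over the 89 that were not, and the median of the bud means was 232 and 477 in these groups. The level of 25 was the same for dim and bright members, and its part in this difference was not tested.

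**Figure D4:**
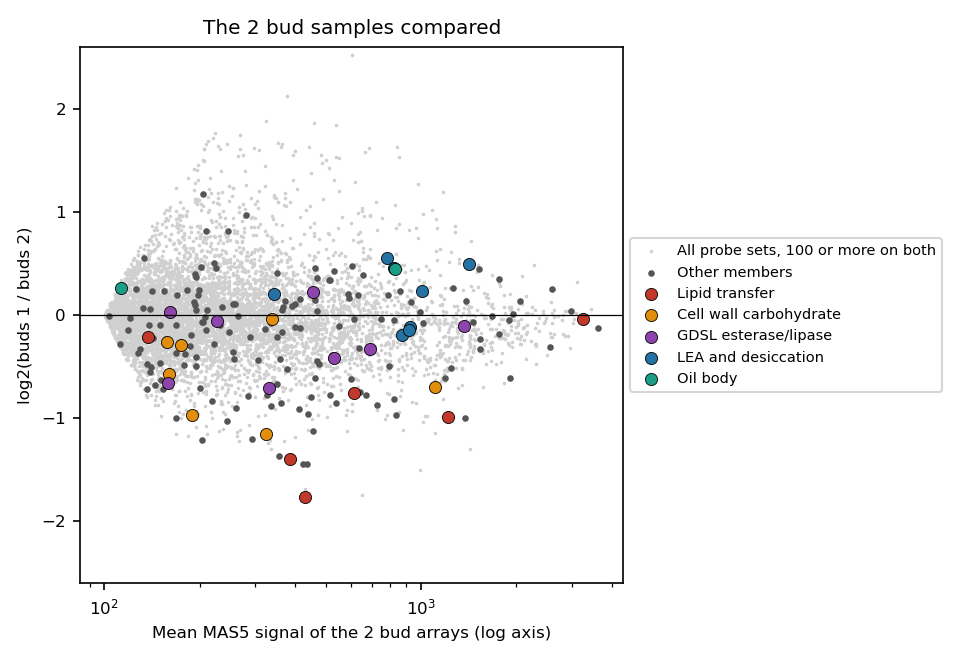
Log2 ratio of buds 1 over buds 2 against the mean bud signal (log axis) for the 6482 probe sets with 100 or more on both bud arrays (grey), the members (dark) and the members of 5 gene families (coloured). Lipid transfer and cell wall carbohydrate genes lie at or below 0, higher on buds 2, and the oil body genes lie above it.

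The 14 marker lists held 96 genes, of which 24 were measured on their own and 3 of these were members. Of the tapetum transcription factors, AMS was at 16.9 and 56.5, bHLH089 at 46.9 and 98.8 and bHLH091 at 21.3 and 29.3 in buds. All 3 were higher on buds 2, but AMS and bHLH091 were under 25 on buds 1. The summed signal of the 3 was 85.1 and 185 in buds, 5.55 and 6.30 in flowers and 5.15 and 12.0 in siliques. All 5 measured genes of mature pollen and the pollen tube were higher on buds 1, but ANX1 was under 25 on buds 2. The summed signal of the 5 was 519 and 279.5 in buds, 244 and 289.6 in flowers and 34.9 and 89.1 in siliques. Among these, MGH3, the histone of the male gametes, was at 206 and 103 in buds and AGL66, a pollen MADS-box gene, at 126 and 63.3. ANX2 was at 61.8 and 25.4 in buds and 111 and 151 in flowers. ANX1 was at 34.4 and 15.7 in buds and 38.3 and 47.6 in flowers. The list was therefore mixed: ANX1 and ANX2 were higher in flowers than in buds, and MGH3, AGL66 and AGL104 were higher in buds. The part of the age or make-up of the buds in the differences between the bud arrays was not tested.

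The other lists added little. The pollen coat list had 4 measured genes, of which EXL2 stayed under 25, and the list of anther lipid transfer proteins had 2, the second being AT5G52160, with 27.3 and 55.6 in buds. UGT79B6 of pollen flavonoid synthesis was at 23.8 and 25.6 in buds. The 3 measured meiosis genes (SDS, SPO11-1 and MER3) were under 25 on all 6 arrays. SPL, which starts sporogenesis, was at 59.2 and 57.8 in buds and no higher than 2.10 elsewhere. EMS1, a receptor kinase of anther cell fate, was at 145 and 185 in buds, 219 and 184 in flowers, and 215 and 216 in siliques, so that only SPL of the pair stood out in buds. Of the 3 measured ovule and seed coat genes, BAN was at 0.850 and 0.617 in buds and 665 and 658 in siliques, INO was between 55.1 and 77.6 on all arrays and AGL62 stayed under 25. SWEET9 of the nectary was at 47.0 and 9.26 in buds and 1272 and 1539 in flowers. No gene of the sporopollenin, callose and tetrad, other anther, endothecium or floral organ identity lists had a probe set of its own.

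Signals of these transcripts after the bud stage were compared between siliques and open flowers. Flowers were taken whole, and the withering flower organs were left out of the siliques. Stage and the organs sampled therefore cannot be told apart in this comparison. The rule caps the highest flower or silique signal and does not order the 2 stages, but the same 4 arrays entered it through that cap. Counts and medians over the members are therefore a description and not independent evidence. The same limit holds for the standard errors and adjusted p-values of single members, whose spread was estimated together with the bud arrays. Of the 184 members, all of which passed the signal filter through the bud arrays, 26 were lower in siliques than in flowers and 0 were higher (limma with Benjamini-Hochberg adjustment over all 12075 probe sets tested). Without the filter, with more probe sets tested, 17 were lower. With only the 4 flower and silique arrays, which keeps the bud arrays out of the spread, 18 were lower. Over all tested probe sets 7.45% were lower and 7.23% higher; among the members these shares were 14.1% and 0. At an unadjusted p under 0.05 (limma), 45 of the 184 members differed, against 3813 of the 12075 probe sets tested. Of these 45, 39 were among the 89 members with a signal of 25 or more in flowers or siliques. The other 6 were among the 95 members under 25 on all 4 of those arrays. The 184 members together differed less often than all tested probe sets, whereas the 89 differed more often. The median log2 difference, siliques minus flowers, was −0.33 over the members and 0.02 over all tested probe sets.

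Both silique arrays lay below both flower arrays in 79 members (42.9%) and above them in 11 (5.98%). Over all tested probe sets these shares were 29.2% and 33.2%. Among the 89 members with a signal of 25 or more in flowers or siliques, the counts were 47 (52.8%) and 6 (6.74%). The other 32 and 5 came from the 95 members under 25 on all 4 arrays, whose order is not measured. The calls came almost entirely from members with a measurable residue: 25 of the 26 were among the 89 with a signal of 25 or more in flowers or siliques, and 1 (TET15) among the 95 without, where no change of stage can be read. The number of calls depended on single arrays. It was 10 without flowers 1, 6 without flowers 2, 15 without siliques 1 and 12 without siliques 2.

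AT3G19390, the cysteine protease, was at 12.0 and 4.79 in siliques against 77.6 and 87.0 in flowers, with a log2 difference of −2.35 ± 0.24 (SE, adjusted p = 0.00372, n = 2 arrays a stage, limma). AT1G20120, a GDSL esterase/lipase, was at 18.4 and 11.4 in siliques against 66.8 and 76.4 in flowers (log2 difference −1.73 ± 0.20, adjusted p = 0.00607, limma). AT3G28830, of the chromosome 3 stretch, was at 104 and 59.4 in siliques against 355 and 320.4 in flowers (log2 difference −1.97 ± 0.24, adjusted p = 0.00683, limma). These 3 genes kept their call in all 16 alternative fits. Those fits reuse the same arrays, so a kept call is not independent evidence. Where both silique arrays are under 25, the fold is better read as a bound against that level, and AT3G19390 was then at least 3.29-fold and AT1G20120 at least 2.86-fold lower in siliques.

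AT3G28790 was at 113 and 58.6 in siliques against 321 and 304 in flowers. The aspartic protease gene AT4G04460 had silique signals of 109 and 83.8 and flower signals of 317 and 239.6. The LEA gene AT5G38760 had 66.1 and 77.0 in siliques against 218 and 208 in flowers. AT3G28980 had 80.9 and 64.9 in siliques against 181 and 208 in flowers. All of these genes were called lower in siliques. Their log2 differences were −1.81 ± 0.28, −1.44 ± 0.20, −1.46 ± 0.20 and −1.30 ± 0.18, and each lost its call in 1 to 3 of the 16 alternatives. AT1G47980 and AT1G52680, with log2 differences of −1.18 ± 0.31 and −1.12 ± 0.22, lost the call in 13 and 4 alternatives. In AT1G75880 (EXL1), AT1G63060 and PC1 both silique arrays were under 25, and the bounds were at least 2.61-fold, 1.16-fold and 1.01-fold lower in siliques. The bound of EXL1 was 1.83-fold without flowers 1, that of PC1 did not reach 1 without flowers 2, and these 3 genes lost the call in 5 to 8 alternatives. TET15 passed the test with 3.97 and 0.621 in siliques against 18.6 and 18.8 in flowers, all under 25, so that no fold is given and no fall is read.

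The lipid transfer gene AT1G66850 had the lowest fitted log2 difference among genes paired with their own probe set. It was at 55.0 and 10.00 in siliques against 128 and 356 in flowers (log2 difference −2.64 ± 0.62, adjusted p = 0.0386, limma). Its arrays differed widely within each stage, and the call was lost in 8 of 16 alternatives, among them each fit without 1 array, where the log2 difference ran from −3.49 to −1.79. The brightest member in buds, 258392_at, was at 16.3 and 6.78 in siliques against 95.7 and 368 in flowers (log2 difference −3.25 ± 0.55), at least 7.50-fold lower in siliques. Without flowers 2 this bound was 3.83-fold and the log2 difference −2.33, without flowers 1 they were 14.7-fold and −4.17, and the call was lost without either silique array (adjusted p = 0.0775 and 0.078, limma). The other 11 members called were probe sets without a listed gene: 250610_at, 256297_at, 250637_at, 253087_at, 254716_at, 250514_at, 261072_at, 266697_at, 253725_at, 250638_at and 258840_at. Their log2 differences ran from −2.83 ± 0.69 (250610_at) to −0.77 ± 0.18 (258840_at). Each lost the call in 1 to 11 of the 16 alternatives. In 256297_at, 253087_at, 261072_at, 250638_at and 258840_at both silique arrays were under 25, so the fitted difference rests on silique signals under that level.

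**Figure D5:**
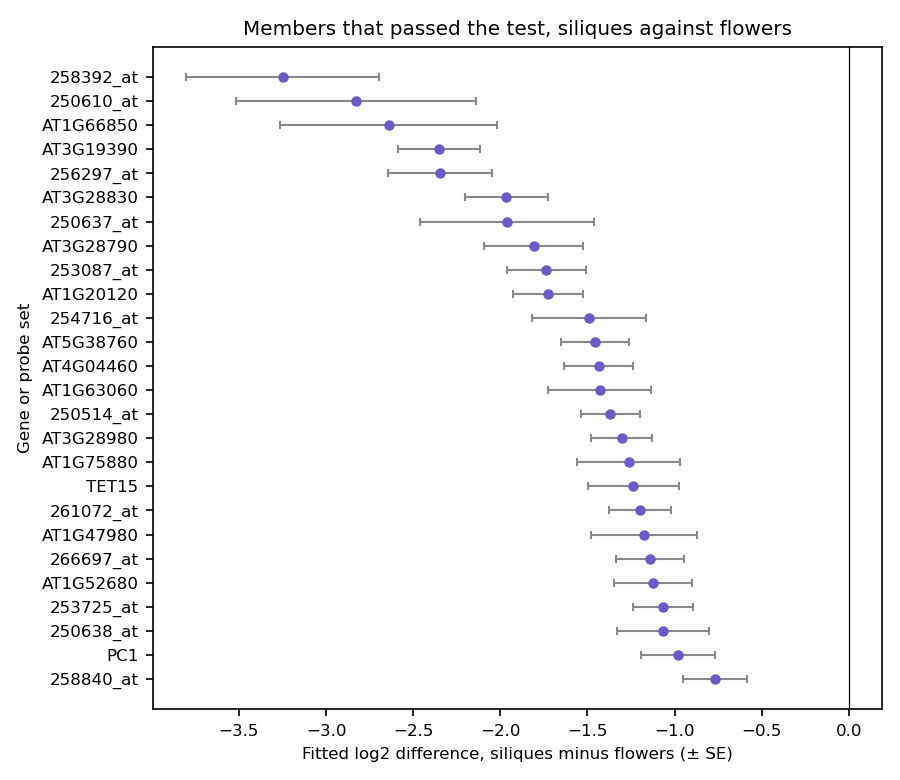
Fitted log2 difference, siliques minus flowers, on signals offset by 10, with limma's standard error, for the 26 members with an adjusted p under 0.05, in order of size. All lie below 0, from −3.25 for 258392_at to −0.77 for 258840_at, and include TET15, whose flower and silique signals are all under 25.

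The silique arrays also differed from each other in these transcripts. Of the 57 members with a signal of 25 or more on either silique array, siliques 1 was at least 2 times higher in 23 (40.4%) and siliques 2 in 0. Over all tested probe sets with such a signal the shares were 1.17% and 2.62%. AT2G20870 was at 381 and 72.4 in siliques against 206 and 186 in flowers, and AT3G28840 at 57.2 and 3.68 in siliques against 42.0 and 0.550 in flowers, so that siliques 1 was above both flower arrays and siliques 2 was not. In flowers neither array prevailed, but the 2 arrays also differed more often in the members than over all tested probe sets. Of 84 members at 25 or more on either array, flowers 1 was at least 2 times higher in 8 (9.52%). Flowers 2 was at least 2 times higher in 9 (10.7%). Over all tested probe sets with such a flower signal the shares were 1.76% and 1.14%. The hybridisation controls stood at a median of 302 on siliques 2 and between 149 and 169 on the other arrays, and their part in the difference between the silique arrays was not tested.

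The placed members lay on all 5 chromosomes, with 32 on chromosome 1, 11 on chromosome 2, 17 on chromosome 3, 12 on chromosome 4 and 24 on chromosome 5. Chromosome 1 held 33.3% of them and 26.3% of the 12224 measured genes that could be placed. Their genes had a median length of 1643 bp, against 2112 bp for the measured genes.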

How the data were processed

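Each of the 6 samples, 2 from each of 3 stages, was hybridised to 1 Affymetrix ATH1 array. Per the submitters' processing notes the tool was MAS5; its version and settings, and detection calls, are not given in the sources used here. The authors deposited 1 linear MAS5 intensity (signal) for each probe set, and the 2% trimmed mean is 100.0 on every array, so no further scaling was applied. The number of arrays limits the precision. P-values weigh a difference against the spread between the 2 pooled samples of a stage, shared over the 3 stages and moderated across probe sets. Of 22810 probe sets, 64 controls were left out. The supplied annotation paired 13513 of the rest with 1 gene, 503 with several and 8730 with none; 13436 matched the RefSeq gene table, used for names and gene order only.

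The rule was applied as stated in the results, with a level of 25 and a ratio of 4. For siliques against flowers, signals were offset by 10 and log2 transformed, and a probe set was tested if it reached 50 on at least 2 arrays, which all 184 members did through the bud arrays. Models were fitted to all 6 arrays with limma 3.58.1 in R 4.3.3 (lmFit, contrasts.fit, eBayes with an intensity trend; 3 residual degrees of freedom, prior 3.61). Two-sided p-values were adjusted over the 12075 probe sets tested and called under 0.05. Lower bounds of a fold set silique signals under 25 to 25. ± is limma's standard error. Simulated data for this comparison had 200 of 12075 probe sets changed in 10 runs. Among probe sets whose mean was above the filter, the test found 80.4% of the 4-fold and 40.5% of the 2-fold changes. Of its calls, 3.86% were false. Before the change, each simulated probe set had the same mean in all stages. The rates therefore do not describe the members, which were bright in buds and dim in the other stages.

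Per the labels the whole experiment was done a second time, so replicate numbers may mark pairs. The main model ignored this pairing, and a replicate term entered only in an alternative. Differences between the replicates correlated over probe sets with r = 0.34 between buds and flowers, r = −0.01 between buds and siliques, and r = 0.17 between siliques and flowers.

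The members, marker lists and tests were chosen with earlier results of these data known. Genes were named by rule: the 20 genes with the highest ratios, members with a symbol or in a marker list, members called between siliques and flowers, up to 12 members next to each other, and the 3 probe sets on each side of the threshold. Other genes named, and the gene families, were chosen after their values were seen. Alternatives changed the level, the ratio, normalization, offset, filter, variance model, arrays and replicate term.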

Additional observations from a re-analysis of the deposited data

How the results depend on the processing

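The set held 184 probe sets as reported, 248 with a level of 10, 117 with a level of 50, 82 with a ratio of 8, and 175 to 179 after scaling to equal medians or quantile normalization. Without any 1 array the rule was met by 187 to 220. A lower level or a missing array can only add members to such a rule, so these settings say nothing of its stability. With the rule applied as a replicate block, within each replicate and in both, 192 probe sets passed. The count of members lower in siliques than in flowers, 26, was 17 without the filter, where more probe sets were tested, and 18 to 27 under the other planned settings. It was 27 with a replicate block in the model, which changed no call among the 26. With 1 array left out it ran from 6 to 20, and in those fits a lone array is assumed to vary like the other groups. Equal array medians gave 1 member higher in siliques, against 0 in every other setting. Of the 26 calls, 3 were kept in all 16 alternatives and 23 were lost without at least 1 array. None reversed. The median log2 ratio of buds 1 over buds 2 among members stayed between −0.13 and −0.12. The 95 members under 25 on all flower and silique arrays have no measured order of those stages, since detection calls were not used here.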

Other observations

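Of the 7 dropped genes that met the rule, only LEA was higher on buds 1, and all the others were higher on buds 2. SHT, a spermidine hydroxycinnamoyl transferase gene, had bud signals of 195 and 463, and AT5G07230 of 553 and 1199. LEA, a dehydrin, was at 746 and 384. ATA27 and AtVEX1 had closely matched bud arrays, at 1439 and 1581 and at 284 and 297. No flower or silique signal of these 5 genes was above 49.6. Bud signals were 168 and 301 for sks18, which was no higher than 8.06 elsewhere. SWEET8 was at 577 and 678 in buds and between 69.4 and 77.7 in flowers and siliques.

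Of the 212 probe sets in which the lower bud array was at least 4 times the higher flower array, with the same level of 25, 21 missed the rule because a silique array was too high.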
